A study of Mus musculus with 20 samples.

Results

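The genes described here, 10 in all, are ones that mammalian cells raise when oxygen is short, followed through a set of p65/RelA constructs. They are Adm, Bnip3, Vegfa, Pdk1, Ankrd37, Car9, Slc16a3, Egln3, Ndrg1 and Ddit4. These genes, and the gene lists set beside them below, were picked by name with earlier results of these data known. Their counts beside the share of all genes are therefore a description. The 15 probes of the 10 genes were found through the RefSeq accession that the array gives for each probe. Of these 10 genes, 9 passed the filter on dim probes and were tested among 18756 genes in all, of which 13841 had a symbol and the rest were single probes without one; Egln3 did not pass.

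The cells were B16, a mouse melanoma line, in a Bcr-Abl+ form, that is, carrying the Bcr-Abl fusion tyrosine kinase of leukaemia; every group shared this background, and the strain entry reads mouse C3H eOuJ. The 6 groups differed in the plasmid transfected: void plasmid (source name Blanck, 3 arrays), wild-type p65 (WT, 3 arrays), the non-cleavable mutant D361E (3 arrays), residues 1 to 361 (N-fragment, 3 arrays), residues 362 to 549 (C-fragment, 3 arrays), and both fragments together (N+C, 5 arrays). p65 is the transactivating subunit of NF-kappaB, the D361E mutant cannot be cut at that residue, and the fragments are the products of the cut. The labels give no promoter, no time after transfection and no oxygen level, and nothing says that the arrays of a group came from separate transfections, so p-values measure the spread between arrays, which may be technical.

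Hypoxia-inducible factors (HIFs) are pairs of an oxygen-regulated alpha subunit, such as HIF1-alpha, and the constant partner ARNT. In air, prolyl hydroxylases (the Egln enzymes) mark the alpha subunit for the VHL ubiquitin ligase; without oxygen the subunit persists, binds the core letters ACGTG or GCGTG near target genes and raises enzymes, transporters and secreted factors that lower oxygen use and recruit blood supply. In melanoma such genes are known for supporting growth in poorly perfused tissue, and several also answer to other signals, among them nutrient stress.

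The cells carried the melanocyte programme: 12 of 12 melanocyte markers were well above background on all 20 arrays. The log2 of their summed scaled signals, set mostly by the brightest markers, lay between 10.25 and 10.61. Single markers could still differ: with the N-fragment the log2 difference from void plasmid was -0.70 for Tyr and 0.44 for Mitf. Of 10 haematopoietic markers 5 (Ptprc and Spi1 among them) were above background on no array and 3 (Cd3e, Itgam and Csf1r) on all 20. Of 10 fibroblast and endothelial markers 3 were above background on all 20 arrays and 4 on none. The log2 of their summed scaled signals was highest with the N-fragment (2.16 to 2.27, against 1.51 to 1.75 with void plasmid). It was lowest with N+C (0.40 to 1.05). The part of these markers in the results was not tested. None of 5 epithelial markers was above background on all arrays. Rela itself, through 1 probe whose place relative to the fragments is not given, had scaled log2 levels between 4.14 and 4.19 with void plasmid, 4.23 and 4.25 with WT, 4.14 and 4.35 with D361E, 4.39 and 4.69 with the N-fragment, 4.22 and 4.30 with the C-fragment, and 4.28 and 4.42 with N+C. The N+C arrays were read in sets fixed beforehand, arrays 16 to 18 and arrays 19 and 20. Between the set means 1901 of 18755 genes (10.1%) differed by more than 1 on the log2 scale. The share for other splits of these arrays is not given. Called differences with N+C from void plasmid are also given by set where the sets part by a factor of more than 1.5.

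Promoter windows of 250 bases before to 50 bases after a start site were at hand for 9 of the 10 genes (RefSeq, GRCm38.p6; 11 windows); Ndrg1 was the member without one. The core of the HIF response element, ACGTG or GCGTG on either strand, was found in 9 of the 11 windows (81.8%), against 43.8% of the 32851 windows of all genes. Each of the 9 genes had it in at least 1 window, and a share counted by gene over all genes is not given. For Vegfa it lay only in the window chr17:46025114-46025413, inside the gene, and not in the window at the gene's 5′ end. The windows of Slc16a3 (chr11:120948817-120949116) and Ankrd37 (chr8:45999801-46000100) also lay inside the gene. The 5′ ends of these genes are at 120948484 and 46000414. The kappaB motif, the NF-kappaB site searched by its usual consensus, matched in 2 of the 11 windows (Vegfa and Car9), against 8.46% of all windows. A match says only that these letters are there. The bases before the start are shown for 3 genes as examples: Bnip3 and Ddit4, lower with 4 or more constructs, and Car9, higher with 1. Adm, Pdk1 and Ankrd37 were also lower with 4 or more constructs, and their bases are not shown. Capitals mark the HIF core, and each line runs 5′ to 3′ towards the start.
Bnip3, chr7:138909507-138909756, minus strand: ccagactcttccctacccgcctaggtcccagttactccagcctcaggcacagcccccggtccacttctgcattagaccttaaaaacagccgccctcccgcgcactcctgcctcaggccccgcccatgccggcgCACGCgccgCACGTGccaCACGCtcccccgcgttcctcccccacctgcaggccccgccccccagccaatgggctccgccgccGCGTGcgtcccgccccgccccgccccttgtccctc
Ddit4, chr10:59951771-59952020, minus strand: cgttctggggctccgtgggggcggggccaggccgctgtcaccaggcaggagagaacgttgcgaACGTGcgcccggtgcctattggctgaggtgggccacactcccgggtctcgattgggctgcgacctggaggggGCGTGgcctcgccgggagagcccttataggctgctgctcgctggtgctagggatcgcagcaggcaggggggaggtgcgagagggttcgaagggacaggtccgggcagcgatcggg
Car9, chr4:43506776-43507025, plus strand: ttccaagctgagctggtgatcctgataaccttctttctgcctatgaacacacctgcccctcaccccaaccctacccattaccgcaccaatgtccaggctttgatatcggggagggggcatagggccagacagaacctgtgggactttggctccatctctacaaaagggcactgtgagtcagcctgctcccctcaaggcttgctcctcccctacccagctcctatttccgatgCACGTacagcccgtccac
Bnip3 held 5 matches, of which 2 overlap in the palindrome CACGTG, which reads as ACGTG on both strands and is also an E-box. Ddit4 held 2, and Car9 held 1 at 18 bases before the start. Slc16a3 held 2 in the last bases before the start site of its window, at 27 and 14 bases, as the 30 bases below show.
Slc16a3, chr11:120949035-120949064, plus strand: cggtgACGTGcgcgggggACGTGccgcgcg

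Most members were lower with p65 constructs than with void plasmid, and least so with WT. Members were called at an adjusted p under 0.05 by limma's moderated test over all 18756 genes, with Benjamini-Hochberg adjustment. With WT, 3 of 9 were lower and none was higher (9.38% of all genes tested were called, 6.16% lower and 3.22% higher). With D361E, 7 of 9 were lower and none was higher (13.5% of all genes called, 7.45% lower and 6.04% higher). With the N-fragment, 6 of 9 were lower and none was higher (31.1% called, 17.9% lower and 13.2% higher). With the C-fragment, 6 of 9 were lower and 1, Car9, was higher (13.1% called, 8.25% lower, 4.88% higher). With N+C, 8 of 9 were lower and none was higher (24.5% called, 12.8% lower and 11.8% higher). The median log2 difference of the 9 genes was -0.70 with WT, -1.72 with D361E, -1.73 with the N-fragment, -1.62 with the C-fragment and -2.14 with N+C, while the median over all genes tested lay between -0.06 and -0.02. These 5 comparisons share the 3 void arrays, and the 9 genes were chosen with earlier results of these data known. The arrays measure RNA of the whole culture, so fewer cells expressing a gene and less RNA per cell cannot be told apart. Without scaling between arrays, which puts the median gene of WT 0.37 above void plasmid, the WT split became 3 higher and 2 lower, and both unscaled and quantile-normalised values gave 1 higher and 6 lower for the N-fragment. Without the N+C group, whose arrays differ among themselves, 6 members were called with WT, 5 lower and Vegfa higher. The shares of all genes above belong to the scaled fit of all arrays, and those of these alternatives are not given here.

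**Figure D1:**
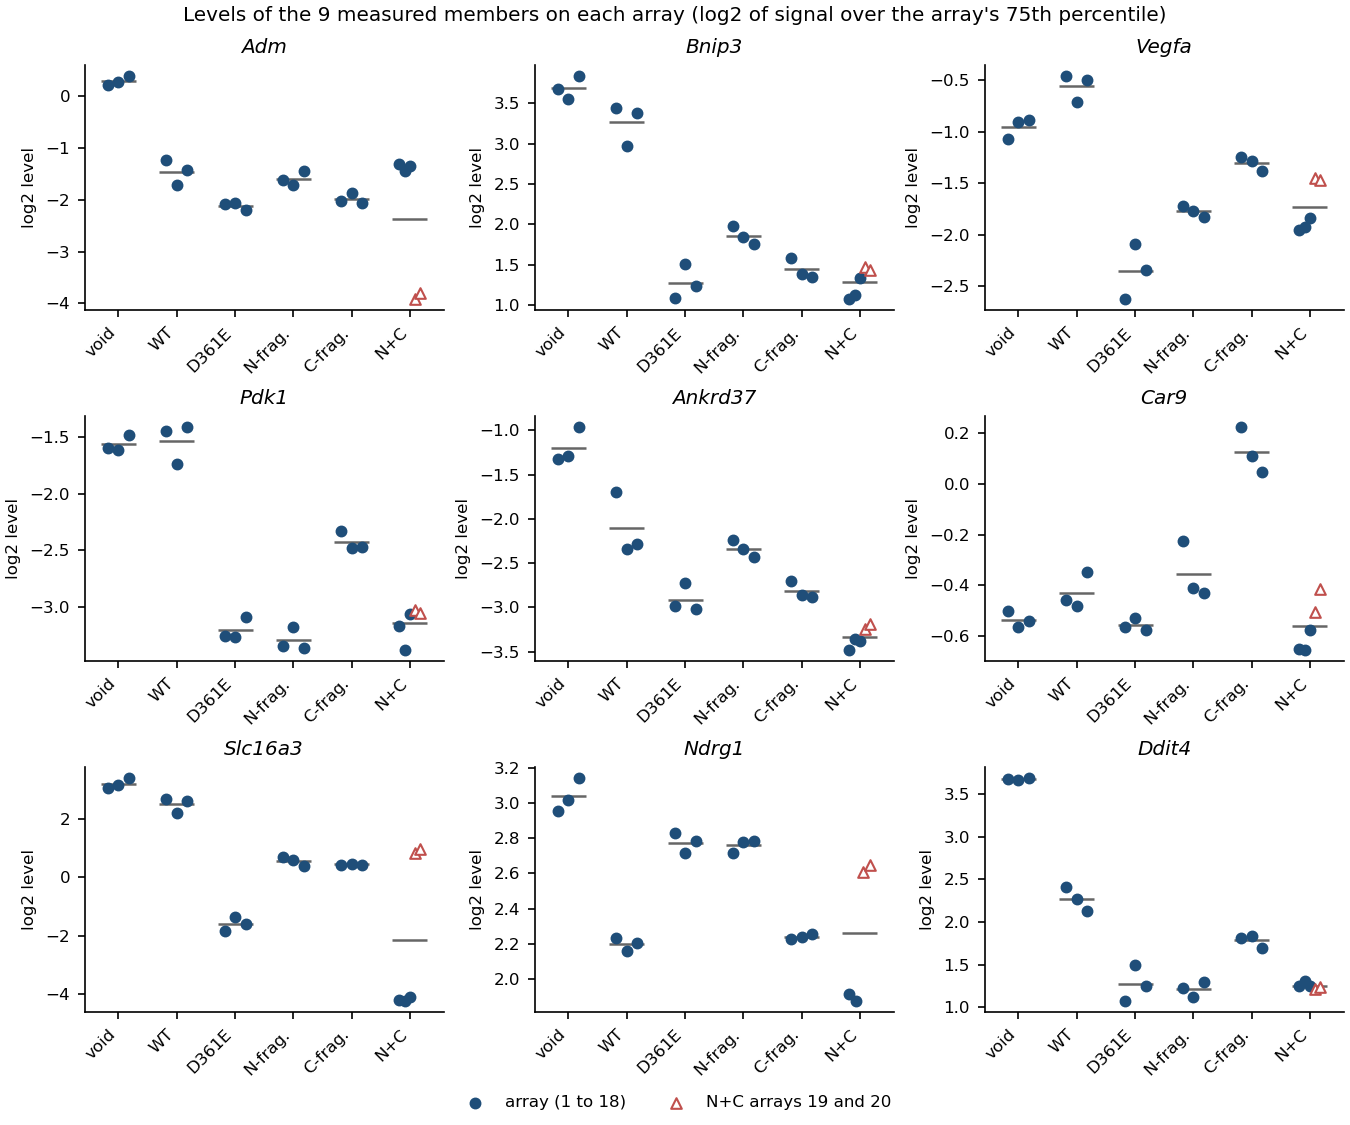
Scaled log2 level (vertical axes, log2 of the processed signal over the array's 75th percentile) of the 9 measured genes on each of the 20 arrays, by group; bars are group means, circles are arrays 1 to 18 and open triangles are N+C arrays 19 and 20. Adm, Bnip3, Ankrd37, Slc16a3, Ndrg1 and Ddit4 were highest on the 3 void arrays, and the N+C arrays part for Adm and Slc16a3.

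**Figure D2:**
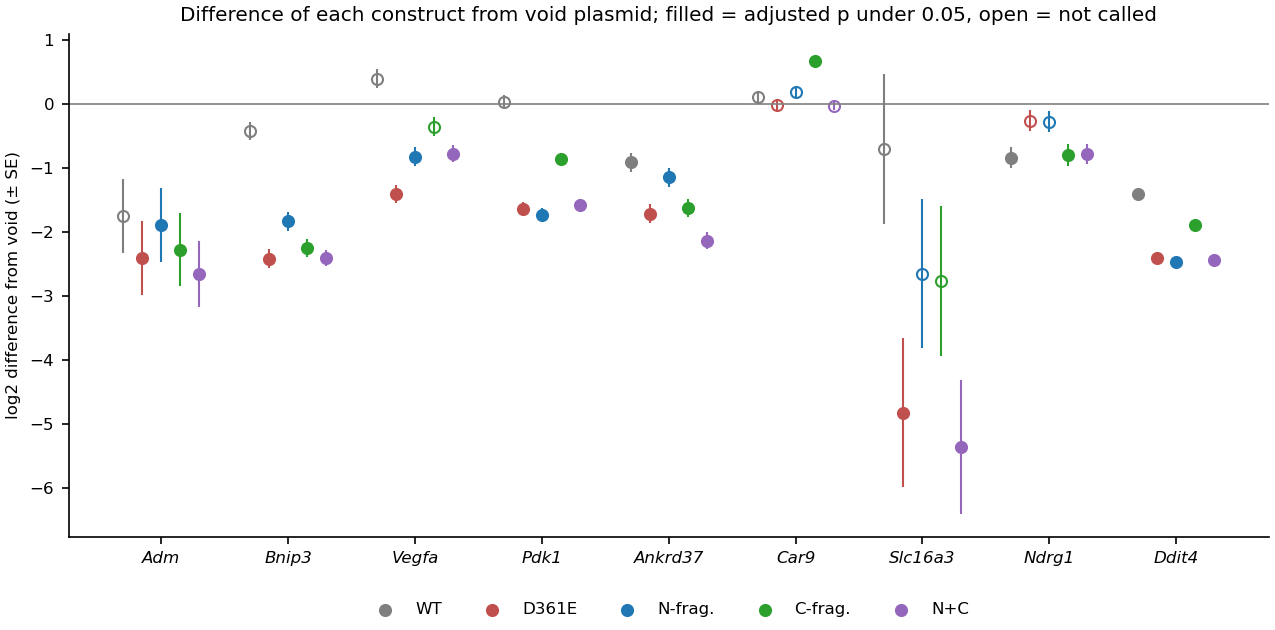
Log2 difference of each construct from void plasmid (vertical axis) for the 9 measured genes, with the standard error of the fit; filled points had an adjusted p under 0.05. Bnip3 lies between -1.83 and -2.41 with the 4 constructs other than WT, and Car9 is above 0 and called with the C-fragment.

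Bnip3 encodes a BH3-type mitochondrial outer membrane protein that recruits autophagosomes to mitochondria. Its scaled log2 levels were 3.68, 3.55 and 3.83 with void plasmid, 3.44, 2.98 and 3.38 with WT, 1.08, 1.51 and 1.24 with D361E, 1.97, 1.84 and 1.75 with the N-fragment, 1.58, 1.39 and 1.35 with the C-fragment, and 1.07, 1.13, 1.33, 1.47 and 1.43 with N+C. The void and WT arrays lay above all others without overlap, and the lower 4 groups spanned less than 1 log2 unit. Bnip3 was 5.33-fold lower with D361E (log2 difference -2.41 ± 0.14, SE, adjusted p = 1.91e-08, limma), and it was lower with the N-fragment, the C-fragment and N+C by log2 -1.83, -2.25 and -2.40 in the same fit. The WT difference of -0.43 ± 0.14 did not pass (adjusted p = 0.0769, limma). Its 3 probes gave log2 differences within 0.28 of each other in every comparison with void plasmid.

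Pdk1 encodes the pyruvate dehydrogenase kinase that diverts pyruvate from the mitochondrial citric acid cycle. Its levels were -1.60, -1.61 and -1.48 with void plasmid, -1.45, -1.73 and -1.41 with WT, -3.26, -3.26 and -3.09 with D361E, -3.35, -3.18 and -3.36 with the N-fragment, -2.33, -2.48 and -2.47 with the C-fragment, and -3.17, -3.38, -3.06, -3.03 and -3.05 with N+C. WT overlapped void plasmid, the C-fragment lay alone in the middle, and the other 3 groups overlapped at the bottom. Pdk1 was 3.12-fold lower with D361E (log2 -1.64 ± 0.10), 3.32-fold lower with the N-fragment (-1.73 ± 0.10), 1.82-fold lower with the C-fragment (-0.86 ± 0.10) and 2.98-fold lower with N+C (-1.58 ± 0.09), with adjusted p at most 5.68e-05 in limma's fit. With WT the log2 difference was 0.03 ± 0.10 (adjusted p = 0.879, limma).

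Slc16a3 encodes MCT4, the monocarboxylate transporter that exports lactate from glycolytic cells, and it had the widest range of the members. Its levels were 3.06, 3.18 and 3.40 with void plasmid, 2.69, 2.20 and 2.63 with WT, -1.85, -1.36 and -1.60 with D361E, 0.71, 0.59 and 0.40 with the N-fragment, and 0.44, 0.47 and 0.44 with the C-fragment. On N+C arrays 16 to 18 it was at -4.20, -4.24 and -4.09, still well above background, and on arrays 19 and 20 at 0.85 and 0.99. Void plasmid and WT lay above every other array, D361E lay below both single fragments, and the N+C sets lay on either side of D361E. Slc16a3 was 28.2-fold lower with D361E (log2 -4.82 ± 1.17, adjusted p = 0.0111, limma) and 40.8-fold lower with N+C (-5.35 ± 1.04, adjusted p = 0.00137). The standard error carries the gap between the N+C sets: with arrays 16 to 18 alone the N+C difference was -7.39 ± 0.14 and with arrays 19 and 20 alone -2.29 ± 0.16. For the same reason the N-fragment (-2.65 ± 1.17, adjusted p = 0.101) and the C-fragment (-2.76 ± 1.17, adjusted p = 0.139) did not pass in limma's fit of all arrays, whereas without the N+C group the standard error fell to 0.15 and both passed (adjusted p = 8.96e-08 and 4.16e-07), as did WT (-0.70, adjusted p = 0.00952). Its second probe gave log2 differences within 0.11 of the first.

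Car9 encodes carbonic anhydrase 9, a membrane enzyme that regulates pH outside the cell and is among the best known HIF1 targets. Its levels were -0.50, -0.56 and -0.54 with void plasmid, -0.46, -0.48 and -0.35 with WT, -0.57, -0.53 and -0.58 with D361E, -0.22, -0.41 and -0.43 with the N-fragment, 0.22, 0.11 and 0.05 with the C-fragment, and -0.65, -0.66, -0.58, -0.51 and -0.41 with N+C. The C-fragment arrays lay above all others. Car9 was 1.58-fold higher with the C-fragment than with void plasmid (log2 0.66 ± 0.07, adjusted p = 3.24e-05, limma). With the other constructs its log2 difference lay between -0.03 and 0.18 and did not pass; by set, N+C was at -0.09 on arrays 16 to 18 and 0.08 on arrays 19 and 20.

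Vegfa encodes the endothelial growth factor that drives vessel growth. Its levels were -1.07, -0.90 and -0.88 with void plasmid, -0.46, -0.71 and -0.49 with WT, -2.63, -2.09 and -2.35 with D361E, -1.73, -1.77 and -1.83 with the N-fragment, -1.25, -1.28 and -1.38 with the C-fragment, and -1.95, -1.93, -1.84, -1.45 and -1.47 with N+C. WT was the group with the highest level, above void plasmid without overlap, and D361E the lowest. Vegfa was 2.65-fold lower with D361E (log2 -1.40 ± 0.15, adjusted p = 8.24e-06, limma), 1.77-fold lower with the N-fragment (-0.82 ± 0.15) and 1.71-fold lower with N+C (-0.78 ± 0.13; -0.96 on arrays 16 to 18 and -0.51 on arrays 19 and 20). These values come from the brighter of its 2 probes. The other, also above background on all 20 arrays, passed with D361E (-1.08, adjusted p = 0.027, limma) but not with the N-fragment (-0.45, adjusted p = 0.298) or N+C (-0.70, adjusted p = 0.0738), nor for the N-fragment or the C-fragment against WT (adjusted p = 0.0695 and 0.339). The WT difference of 0.40 ± 0.15 did not pass (adjusted p = 0.109), but did with the slide as a block (0.52 ± 0.13, adjusted p = 0.0309, limma). The C-fragment difference of -0.35 ± 0.15 did not pass (adjusted p = 0.13).

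Adm encodes adrenomedullin, a secreted vasodilator peptide. Its levels were 0.22, 0.27 and 0.38 with void plasmid, -1.23, -1.72 and -1.43 with WT, -2.07, -2.06 and -2.20 with D361E, -1.62, -1.72 and -1.45 with the N-fragment, and -2.03, -1.86 and -2.06 with the C-fragment. On N+C arrays 16 to 18 it was at -1.32, -1.45 and -1.35, and on arrays 19 and 20 at -3.92 and -3.79. Every construct array lay below every void array, and the N+C sets parted in the direction opposite to Slc16a3. Adm was 5.29-fold lower with D361E (log2 -2.40 ± 0.58, adjusted p = 0.0103, limma), and lower with the N-fragment (-1.89 ± 0.58), the C-fragment (-2.27 ± 0.58) and N+C (-2.66 ± 0.51). N+C arrays 16 to 18 alone gave -1.66 ± 0.11 and arrays 19 and 20 alone -4.15 ± 0.12. The WT difference of -1.75 ± 0.58 did not pass in the fit of all arrays (adjusted p = 0.0701) and passed without the N+C group (-1.75 ± 0.11, adjusted p = 1.68e-06, limma). Leaving out void replicate 3 ended the calls of the N-fragment (adjusted p = 0.0528) and of the C-fragment (adjusted p = 0.054), as did leaving out N-fragment replicate 2 (adjusted p = 0.0578) and C-fragment replicate 3 (adjusted p = 0.0524) for their own groups, in limma's fit.

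Ddit4 encodes REDD1, a stress-induced inhibitor of mTORC1. Its levels were 3.68, 3.66 and 3.69 with void plasmid, 2.42, 2.27 and 2.13 with WT, 1.07, 1.49 and 1.24 with D361E, 1.23, 1.12 and 1.30 with the N-fragment, 1.81, 1.84 and 1.70 with the C-fragment, and 1.25, 1.30, 1.24, 1.21 and 1.23 with N+C. Void plasmid, WT and the C-fragment each held a range of their own, while D361E, the N-fragment and N+C overlapped. Ddit4 was lower with all 5 constructs, 2.65-fold with WT (log2 -1.41 ± 0.09, adjusted p = 1.18e-07, limma), 5.31-fold with D361E (-2.41 ± 0.09), 5.51-fold with the N-fragment (-2.46 ± 0.09), 3.72-fold with the C-fragment (-1.90 ± 0.09) and 5.39-fold with N+C (-2.43 ± 0.08).

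Ndrg1 encodes a cytoplasmic stress-response protein linked to differentiation. Its levels were 2.95, 3.02 and 3.14 with void plasmid, 2.24, 2.16 and 2.20 with WT, 2.83, 2.71 and 2.78 with D361E, 2.72, 2.78 and 2.78 with the N-fragment, 2.23, 2.24 and 2.26 with the C-fragment, and 1.92, 1.88, 2.61 and 2.65 on N+C arrays 16, 18, 19 and 20. The spot of N+C array 17 was marked an outlier by the scanner software and left out, so N+C had 4 values. Ndrg1 fell into levels unlike those of the other members: WT and the C-fragment lay together below D361E and the N-fragment, with void plasmid above all. It was lower with WT (log2 -0.84 ± 0.17, adjusted p = 0.00561, limma), the C-fragment (-0.80 ± 0.17) and N+C (-0.77 ± 0.16; -1.14 on arrays 16 to 18 and -0.41 on arrays 19 and 20). The differences with D361E (-0.26 ± 0.17, adjusted p = 0.366) and the N-fragment (-0.28 ± 0.17, adjusted p = 0.24) did not pass.

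Ankrd37 encodes a small ankyrin-repeat protein known mainly as a HIF1 target. Its levels were -1.33, -1.29 and -0.97 with void plasmid, -1.70, -2.34 and -2.28 with WT, -2.99, -2.73 and -3.02 with D361E, -2.24, -2.34 and -2.43 with the N-fragment, -2.70, -2.86 and -2.89 with the C-fragment, and -3.48, -3.36, -3.38, -3.24 and -3.19 with N+C. Void plasmid lay above every other array, WT overlapped the N-fragment, and the 5 N+C arrays lay below every other array. Ankrd37 was lower with all 5 constructs, from 1.88-fold with WT (log2 -0.91 ± 0.15, adjusted p = 0.00108, limma) to 4.40-fold with N+C (-2.14 ± 0.13, adjusted p = 1.68e-08).

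Egln3 encodes PHD3, the prolyl hydroxylase that HIF itself induces and that marks HIF for destruction. Its 2 probes were each well above background on 1 of 20 arrays, a void array in both cases. The processed signals of the first probe were 16.3, 10.3 and 12.2 intensity units with void plasmid and at most 8.66 on every other array. No test was made for this gene in the filtered table.

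Against WT instead of void plasmid, each construct again had more members lower than higher. Of the 9 genes, 5 were lower with D361E than with WT and none was higher, against 4.17% of all genes called, 1.77% lower and 2.40% higher. These were Bnip3 (3.97-fold, log2 -1.99 ± 0.14), Vegfa (3.48-fold, -1.80 ± 0.15), Pdk1 (3.19-fold, -1.67 ± 0.10), Ddit4 (2.00-fold, -1.0 ± 0.09) and Ankrd37 (1.75-fold, -0.80 ± 0.15). Slc16a3 was at -4.11 ± 1.17 and did not pass (adjusted p = 0.063, limma). It passed in limma's fit with the slide as a block (-5.16, adjusted p = 0.0468) and without the N+C group (-4.11 ± 0.15, adjusted p = 3.59e-08). Without that group 8 of 9 members were called between D361E and WT, 7 lower and Ndrg1 higher. The 4.17% belongs to the fit of all arrays, and the share of all genes called without that group is not given here. The N-fragment had 4 lower (Bnip3, Vegfa, Pdk1, Ddit4) and 1 higher, Ndrg1 (0.56 ± 0.17, adjusted p = 0.0204, limma), where 27.3% of all genes were called, 13.5% lower and 13.8% higher; the Ndrg1 call was lost with the slide as a block (adjusted p = 0.0637) and without WT replicate 2 or N-fragment replicates 2 or 3 (adjusted p = 0.0621, 0.0563 and 0.0534). The C-fragment had 5 lower (the same 4 and Ankrd37) and Car9 higher, where 4.43% were called, 2.35% lower and 2.08% higher; Ankrd37 was lost without C-fragment replicate 3 (adjusted p = 0.0548, limma). N+C had 6 lower (those 5 and Slc16a3), where 23.2% were called, 9.67% lower and 13.6% higher. Without scaling the N-fragment split against WT was 0 higher and 4 lower, and with quantile normalisation the D361E split was 1 higher and 5 lower. Comparisons with WT share the 3 WT arrays.

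The 2 single fragments differed from each other in 6 of the 9 genes, where 20.1% of all genes were called, 10.1% lower and 9.98% higher. Pdk1 (log2 -0.87 ± 0.10, adjusted p = 1.3e-05, limma), Ddit4 (-0.57 ± 0.09, adjusted p = 0.000272) and Car9 (-0.48 ± 0.07, adjusted p = 0.000178) were lower with the N-fragment. Vegfa was also lower (-0.47 ± 0.15, adjusted p = 0.0323), and Ankrd37 (0.48 ± 0.15, adjusted p = 0.0302) and Ndrg1 (0.52 ± 0.17, adjusted p = 0.0383) were higher with the N-fragment, but these 3 calls were less stable. The other Vegfa probe was at -0.16 and did not pass (adjusted p = 0.768, limma). The Vegfa and Ndrg1 calls were each lost whichever of the 6 arrays was left out (adjusted p from 0.0561 to 0.097 and from 0.0768 to 0.0946, limma). The Ankrd37 call was lost in 4 of these 6 fits (adjusted p up to 0.106, limma), and with the slide as a block Ankrd37 (adjusted p = 0.0632) and Ndrg1 (adjusted p = 0.105) were not called. With quantile normalisation or no scaling the split was 3 higher and 3 lower. Slc16a3 and Bnip3 were not called between the fragments (0.11 ± 1.17 and 0.42 ± 0.14, adjusted p = 0.963 and 0.0521, limma).

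Whether the fragments together did what their single differences add up to was tested as an interaction on the log2 scale, N+C minus void plasmid minus both single-fragment differences. Of the 9 genes, 4 were higher and 1 was lower than the sum, where 23.1% of all genes were called, 14.3% higher and 8.74% lower. Ddit4 was lower by 2.46 with the N-fragment and by 1.90 with the C-fragment, a sum of -4.36, against -2.43 observed with both (1.93 ± 0.12 above the sum, adjusted p = 2.93e-08, limma). Bnip3 showed a sum of -4.08 against -2.40 observed (1.68 ± 0.19, adjusted p = 1.46e-05), Pdk1 -2.60 against -1.58 (1.02 ± 0.14, adjusted p = 7.16e-05) and Ankrd37 -2.77 against -2.14 (0.63 ± 0.20, adjusted p = 0.0308). For Bnip3, Ddit4 and Pdk1 the difference seen with both fragments lay beside the larger of the single ones. These were -2.25 with the C-fragment for Bnip3, and -2.46 and -1.73 with the N-fragment for Ddit4 and Pdk1. Ankrd37 with both fragments (-2.14) lay below both single differences, -1.62 with the C-fragment and -1.14 with the N-fragment. Car9 went the other way: the sum was 0.84 and the observed difference -0.03 (-0.87 ± 0.10, adjusted p = 1.48e-05, limma), so the higher Car9 level of the C-fragment was not seen with both fragments. The Ankrd37 call was lost in 5 of the 14 fits that left out 1 array, those without void replicate 3, C-fragment replicates 2 or 3, or N-fragment replicates 2 or 3 (adjusted p = 0.0906, 0.0693, 0.0709, 0.0611 and 0.0761, limma).

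For Adm and Slc16a3 the answer turned on the N+C set. Adm had a sum of -4.16; arrays 16 to 18 were 2.50 ± 0.15 above it (adjusted p = 3.1e-08, limma) and arrays 19 and 20 met it (0.01 ± 0.17, adjusted p = 0.963). Slc16a3 had a sum of -5.41; arrays 16 to 18 were below it by -1.98 ± 0.20 (adjusted p = 4.34e-06) and arrays 19 and 20 were above it by 3.12 ± 0.22 (adjusted p = 5.65e-07, limma). Without N+C replicate 4, Adm was called above the sum (1.89, adjusted p = 0.0396, limma).

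**Figure D3:**
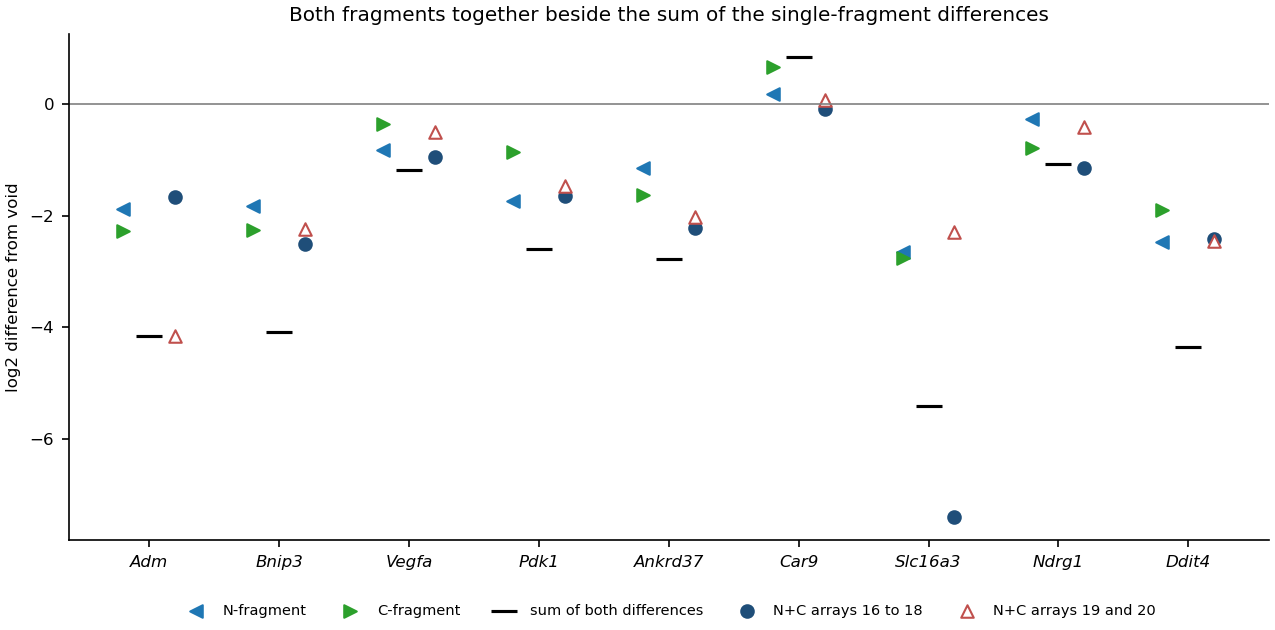
Log2 difference from void plasmid (vertical axis) of the N-fragment (left triangles), the C-fragment (right triangles), their sum (bars) and N+C in its 2 sets (circles for arrays 16 to 18, open triangles for arrays 19 and 20). Ddit4, Bnip3 and Pdk1 with both fragments lie above the bar of the sum, and for Slc16a3 the N+C sets lie at -7.39 and -2.29.

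The groups were spread over 5 slides of 4 arrays, so that most comparisons could also be read within a slide. Within slides, Slc16a3 with N+C against void plasmid was at -2.42, -7.29 and -4.85 on slides 2, 3 and 5. Slide 2 held N+C array 20, slide 3 array 17, and slide 5 arrays 16 and 19 from the separate sets. The -4.85 on slide 5 is therefore a mean over both sets. With D361E, Slc16a3 was at -4.76 and -4.78 on slides 2 and 5. The called members kept their direction in 110 of 110 within-slide values, which use the arrays of the fit itself.

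Among 16 genes of the HIF machinery, of which 14 were tested, the alpha subunit gene Hif1a was higher with WT (log2 0.32 ± 0.09), D361E (0.45 ± 0.09), the N-fragment (0.31 ± 0.09) and N+C (0.30 ± 0.08), and with the C-fragment was at 0.27 ± 0.09 (adjusted p = 0.0708, limma). Egln1, the main oxygen-sensing hydroxylase and itself inducible, was lower with D361E (-0.64 ± 0.12), the N-fragment (-0.69 ± 0.12), the C-fragment (-0.69 ± 0.12) and N+C (-0.82 ± 0.11), and at -0.19 ± 0.12 with WT (adjusted p = 0.382). Vhl, the ubiquitin ligase subunit, was lower with the N-fragment (-0.43 ± 0.11) and N+C (-0.40 ± 0.09). Arnt was higher with D361E (0.23 ± 0.07), and Epas1, the gene of HIF2-alpha, and Hif1an, the asparaginyl hydroxylase, were called with no construct; their log2 differences lay between -0.24 and -0.08 and between 0.19 and 0.33. The transcriptional coactivator gene Crebbp was lower with WT (-0.31), the N-fragment (-0.42) and N+C (-0.32), the first of which changed sign without scaling. Siah2, a ubiquitin ligase gene, was lower with the N-fragment (-0.21, with the sign turned without scaling), and Cul2, the scaffold of the VHL ligase, was higher with N+C (0.34; 0.52 on arrays 16 to 18 and 0.07 on arrays 19 and 20). Egln1 (-0.45) and Siah2 (-0.27) were lower with D361E than with WT. In all, 1 was higher and 1 lower with WT, 2 and 1 with D361E, 1 and 4 with the N-fragment, 0 and 1 with the C-fragment, and 2 and 3 with N+C, and the list's median difference lay between -0.13 and 0.04. These counts, such as 5 of 14 with the N-fragment, stand beside 9.38%, 13.5%, 31.1%, 13.1% and 24.5% of all genes called in the same order.

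A list of 32 other hypoxia-induced genes, of which 29 were tested, was lower more often than higher with every construct: 4 lower and 1 higher with WT, 11 and 2 with D361E, 13 and 3 with the N-fragment, 12 and 2 with the C-fragment, and 14 and 3 with N+C, beside 6.16%, 7.45%, 17.9%, 8.25% and 12.8% of all genes lower. The list's median log2 difference was -0.13, -0.22, -0.35, -0.30 and -0.28 in that order. Ak4, a mitochondrial adenylate kinase, was at 0.30, 0.34 and 0.34 with void plasmid and at -2.38, -2.42 and -2.37 with D361E, the lowest of all groups (-2.71 ± 0.16, adjusted p = 2.57e-08, limma), and was also lower with WT (-0.68), the N-fragment (-0.94), the C-fragment (-0.94) and N+C (-1.34; -1.08 on arrays 16 to 18 and -1.72 on arrays 19 and 20). Fam162a, a mitochondrial protein gene, was lower with WT (-0.42) and D361E (-0.88), Selenbp1, a selenium-binding methanethiol oxidase, with D361E (-0.84), the N-fragment (-1.35) and the C-fragment (-0.89), and Mif, a cytokine gene, with WT (-0.30, of opposite sign without scaling). The cyclin G2 gene Ccng2 was lower with the C-fragment (-0.98) and Narf with N+C (-1.53). The bifunctional glycolysis regulator Pfkfb4 (-1.19) and P4ha1, the collagen prolyl hydroxylase subunit (-1.13), were lower with the N-fragment. Apart from Ak4, genes of this list are named only with constructs where they were among the up to 3 largest called differences per direction. A construct left unnamed may differ too: with N+C, Ccng2 was at -1.12 and -1.13 and Fam162a at -0.72 and -0.53 by set. Car12, another membrane carbonic anhydrase gene, was lower with N+C (-3.97 ± 0.94); it was above background on all 3 void arrays, on none of arrays 16 to 18, and on both of arrays 19 and 20, where its log2 difference from void plasmid was -1.21.

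Against this direction, Pfkfb3, whose kinase makes the sugar bisphosphate that speeds glycolysis, was higher with the N-fragment (0.71 ± 0.05), the C-fragment (0.39 ± 0.05) and N+C (0.95 ± 0.04), the cholesterol-sensing regulator Insig2 with WT (0.30) and D361E (0.79), the circadian repressor Bhlhe40 with D361E (0.29), the transferrin receptor gene Tfrc with the C-fragment (0.30) and N+C (0.33; 0.26 and 0.42 by set), and Hilpda, a lipid droplet protein gene, with the N-fragment (0.18). Between D361E and WT, Ak4 (-2.03), Narf (-0.55) and Fam162a (-0.45) were lower and Insig2 (0.49), Bhlhe40 (0.34) and Pfkfb3 (0.23, of opposite sign without scaling) were higher; in all 5 were lower and 3 higher.

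All 15 genes of the glycolysis list were tested. With D361E 7 were lower and none higher, with WT 2 and 0, with the N-fragment 5 and 1, with the C-fragment 2 and 0, and with N+C 3 and 1, and the medians lay between -0.26 and -0.13. Of all genes, 13.5% were called with D361E, 9.38% with WT, 31.1% with the N-fragment, 13.1% with the C-fragment and 24.5% with N+C. The counts with WT, the C-fragment and N+C are close to these shares, and that with the N-fragment is somewhat above its share. With D361E, 7 of 15 is well above, in a list chosen with earlier results of these data known. The phosphofructokinase genes Pfkl and Pfkp were lower with D361E (-1.0 ± 0.17 and -0.84 ± 0.14), as was hexokinase 2, Hk2 (-0.50 ± 0.08), and the same 3 were lower with D361E than with WT (-0.87, -1.0 and -0.48). The brain-type aldolase gene Aldoc was lower with the N-fragment (-2.25 ± 0.22) and N+C (-1.17 ± 0.20; -1.53 on arrays 16 to 18 and -0.65 on arrays 19 and 20), and Pfkp (-0.65) and Pfkl (-0.64) were lower with the N-fragment. Pfkl (-0.91) and Hk2 (-0.31) were lower with the C-fragment, and Pfkl (-0.65; -0.78 and -0.44 by set) and Hk2 (-0.48; -0.56 and -0.35 by set) with N+C. Hk1 was higher with the N-fragment (0.60 ± 0.21) and N+C (0.76 ± 0.19; 1.05 on arrays 16 to 18 and 0.32 on arrays 19 and 20). The WT calls, lactate dehydrogenase Ldha (-0.37) and Gpi1 (-0.24), changed sign without scaling.

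**Figure D4:**
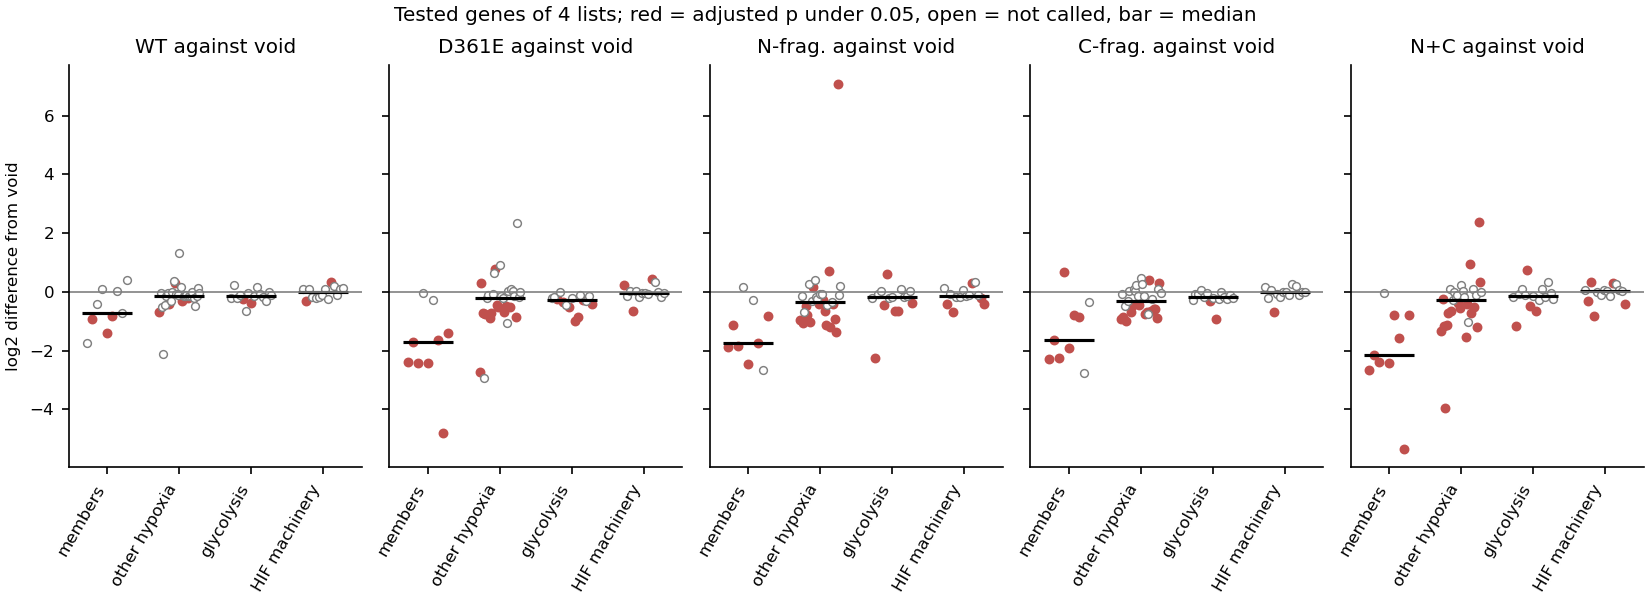
Log2 difference from void plasmid (vertical axes) of the tested genes of 4 lists (9 members, 29 other hypoxia-induced genes, 15 glycolysis genes, 14 genes of the HIF machinery), one panel per construct; red points had an adjusted p under 0.05, open points did not, and bars are list medians. The member median lies at -0.70 with WT and between -1.62 and -2.14 with the others, and the medians of the other lists lie between -0.35 and 0.04.

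The members did not all move alike. Over the 20 arrays the Pearson correlation between 2 members ranged from -0.28 to 0.92 over 36 pairs, with a median of 0.59; the arrays share groups, so this is a description. Among 11419 other genes above background on all 20 arrays, those most like the mean standardised level of the 8 members measured on every array were Clybl (r = 0.942), Ppargc1a (0.939), Rbks (0.921), Sesn2 (0.910) and Dglucy (0.909), over the same 20 arrays in 6 groups. With group means removed, the same correlations were 0.62, 0.47, 0.32, 0.15 and 0.51. All N+C arrays shared a single mean there, so the gap between the N+C sets stays in these values.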

How the data were processed

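The 20 RNA samples were hybridised in 1 colour (Cy3) to Agilent mouse arrays, whose design build is mm9, per the file headers. The deposited files hold intensity values from Agilent Feature Extraction 10.7.3.1 (per the submitters' processing notes and the file headers): the processed signal, corrected for background but not scaled between arrays, with flags; the series' value table held the same signals. Control spots and outlier-flagged spots were left out, spots of a probe were averaged, and each array's 75th percentile was subtracted from log2 of the processed signal. Of 39429 probes, 28663 received a symbol through their accession (RefSeq, GRCm38.p6). The 23453 probes that 3 or more of the 20 arrays measured well above background were kept, and the brightest probe represented a symbol. One limma 3.58.1 fit (R 4.3.3) over all 20 arrays and 6 groups gave each comparison; calls needed a Benjamini-Hochberg adjusted p under 0.05 over all 18756 genes. Per array 51.1% to 57.9% of spots were well above background, none was saturated, and the 75th percentile varied 1.45-fold; 3 to 5 arrays a group limit the precision.

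The members and gene lists were chosen with earlier results of these data known. All 10 members and 6 HIF pathway genes are named whatever their values; from each list up to 3 called genes per direction with the largest difference from void plasmid, or between D361E and WT, are named, and the 5 genes most like the members. Some results under this rule are not reported here. Alternatives were other scalings, background corrections, filters, probe rules, fits of the compared groups alone, the slide as a block, a trended prior and leaving out arrays. The normexp correction used the median signal of a spot.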

Additional observations from a re-analysis of the deposited data

Results flagged for a closer look

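For 5 members the difference made by the C-fragment depended on whether the N-fragment was present, by the interaction test of limma. Over all 18756 genes, 23.1% were called in this test, 14.3% higher and 8.74% lower. The interaction was 1.68 for Bnip3 and 1.93 for Ddit4 on the log2 scale: both were lower with the C-fragment alone (-2.25 and -1.90), and the log2 differences from void plasmid were -2.40 and -2.43 with N+C and -1.83 and -2.46 with the N-fragment alone. It was 1.02 for Pdk1 and 0.63 for Ankrd37, and -0.87 for Car9, whose C-fragment level was the highest of all groups and whose N+C level overlapped void plasmid. The Ankrd37 call was lost in 5 of the 14 fits that left out 1 array.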

How the results depend on the processing

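Over all alternatives 1807 member results were recomputed: 1646 kept their side of the threshold, 102 lost it, 56 gained it and 3 turned their sign while called in one of the fits. A further 37, counted among the 1646, turned their sign but were called in neither fit, among them Car9 with N+C against void plasmid. Normexp correction as planned took 49 of 99 results below the threshold; a few spots with very high local background entered its fit. It left 0 members called for WT against void plasmid, 2 for D361E, 2 for the N-fragment, 0 for the C-fragment and 3 for N+C, then against WT 1 for D361E, 2 for the N-fragment, 1 for the C-fragment and 3 for N+C, 0 between the fragments and 0 beyond their sum. Where it left 0 in limma's test, an unadjusted p under 0.05 was reached by 3 members for WT, 5 for the C-fragment, 1 between the fragments and 3 beyond the sum. With the array median background at flagged spots, an alternative chosen after seeing the data, WT against void plasmid had 5. That comparison had 5 without scaling and 6 without the N+C group, also added later, which gave 8 for D361E against WT. N+C against void plasmid had 5 in a fit of those groups alone. The fragments differed in 3 members without the filter on dim probes. Beyond the sum, 8 were called without N+C arrays 16 to 18. The shares of all genes called in these alternatives are not given here.

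Leaving out 1 array gave 3 to 3 members for WT against void plasmid, 7 to 7 for D361E, 5 to 6 for the N-fragment, 6 to 7 for the C-fragment and 8 to 8 for N+C; against WT 5 to 5 for D361E, 4 to 5 for the N-fragment, 5 to 6 for the C-fragment and 6 to 6 for N+C; 3 to 4 between the fragments and 4 to 6 beyond the sum. The changes of sign with a call were Ankrd37 with the C-fragment against WT (0.17 under planned normexp), Ndrg1 with N+C against WT (-0.30 without arrays 19 and 20) and Slc16a3 beyond the sum (-1.98 without arrays 19 and 20). Their cause was not tested. No paired analysis was possible because the labels number the arrays 1 to 20 and give groups no shared replicate numbers to pair on. With the slide as a block instead, 94 of 99 results kept their side of the threshold. Egln3 did not pass the filter on dim probes and was not tested in the main fit. In the fit without that filter its log2 differences from void plasmid lay between -2.12 (D361E) and -1.74 (N-fragment). These rest on a probe well above background on 1 of the 20 arrays.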
